A study of Mus musculus with 1814 samples.

Results

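The cells described here are germinal center B cells of mice that the labels call Dec+ and dark zone and that the deposited cell table places in phase G2M of the cell cycle. They number 77 in experiment 3 and 88 in experiment 4, which is 32.9% of the 501 Dec+ dark zone cells of these experiments. The others are 89 and 76 cells in G1 and 81 and 90 in S, and 1338 kept cells of the whole series could be matched to a sample. Single cells were index-sorted into plates, and RNA was read well by well with SmartSeq2, which covers whole transcripts and does not tag single molecules. Both experiments held cells of 12, 30, 46 and 60 h, and each time of each experiment is called a harvest below, which gives 8 harvests. What Dec marks, the event from which the hours count, and the strain, age and number of the mice are not given in the sources used here, and the genotype of these wells is labelled NA. The cells carried a FUCCI signal, a fluorescent reporter of cell cycle position, but the labels do not say which reporter protein was read. No label names an animal, so counts were summed over the cells of a harvest and phase. Between phases, p-values measure the spread between 8 harvests of 2 experiments. The plates labelled A, B and C each held wells of every time, so harvests that share plates are not independent in processing. Tests over time rest on 2 sums a time.

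In the dark zone of the germinal center, B cells divide and acquire mutations in their antibody genes, and in the light zone they are selected by antigen and T cell help. A cell enters mitosis when cyclin B and its partner CDK1 become active, helped by the kinase PLK1. It leaves mitosis when the anaphase-promoting complex, switched on by CDC20, destroys the cyclins. Most genes of this machinery are transcribed late in the cycle and are silent in G1.

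The phase came from RNA. In all 677 kept cells of experiments 3 and 4, the deposited phase followed from the deposited S and G2M scores, with G2M given where the G2M score was above 0 and above the S score. G2M scores of the members lay between 0.138 and 3.00 (median 1.27), against medians of -0.11 in S cells and -0.81 in G1 cells. The 3 members nearest the edge of the rule lay 4.44e-06, 0.000203 and 0.0239 score units inside it, and the 3 nearest other cells lay 0.0429, 0.0557 and 0.0631 outside it. Within 0.1 units of the edge there were 7 members and 7 other cells. An S score above 0 was held by 69 members as well. Scored anew from the counts, 91.5% of the members remained G2M and 14 cells did not. The scores were taken to rest on 46 S entries and 56 G2M entries of a published gene list. That the authors used this list is not given, and scoring with it gave the deposited phase in 641 of the 677 cells. Genes called in or outside the scores below are those in or outside this list. No p-value between phases is given for genes in it, although they shared the adjustment for multiple testing. Genes outside the scores were tested, but their RNA comes from the same cells that the scores sorted.

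The markers of the label were high in the cells that carry it. Cdc20, the mitotic activator of the anaphase-promoting complex, had between 760 and 1478 CPM (counts scaled to a common total per sum, with edgeR's TMM factor; median 1030) in the 8 G2M sums, 57.1 to 409 (median 116.7) in S sums and 0 to 223 (median 26.4) in G1 sums. Ccnb2, a B-type cyclin, had 394 to 909 CPM (median 547) in G2M, 48.3 to 308 (median 137.3) in S and 42.4 to 165.5 (median 56.4) in G1. Both genes are in the G2M score, and for neither did the G2M sums overlap those of the other phases. The choice of cells favors this separation if the authors scored with the published list. Plk1, the polo kinase of mitotic entry, is not in the score; it had 170 to 567 CPM (median 418) in G2M, 20.1 to 108.6 (median 60.1) in S and at most 20.2 in G1, where 6 of 8 sums were at 0. A count of Plk1 was found in 75.2% of G2M cells (exact 95% binomial interval 67.8 to 81.5), in 28.1% of S cells (48 cells) and in 1.21% of G1 cells (2 cells). With each cell thinned to 20000 counts, which 2 G2M cells and 1 S cell did not reach, these shares were 73%, 25.9% and 0.606%. Shares for Cdc20 were 89.1%, 41.5% and 6.67%, so a part of the S cells also carried mitotic transcripts. Genome positions are in mm10: Cdc20 lies on chromosome 4 from 118432901 to 118437352, Ccnb2 on chromosome 9 from 70407692 to 70421547, and Plk1 on chromosome 7 from 122159439 to 122169873.

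**Figure D1:**
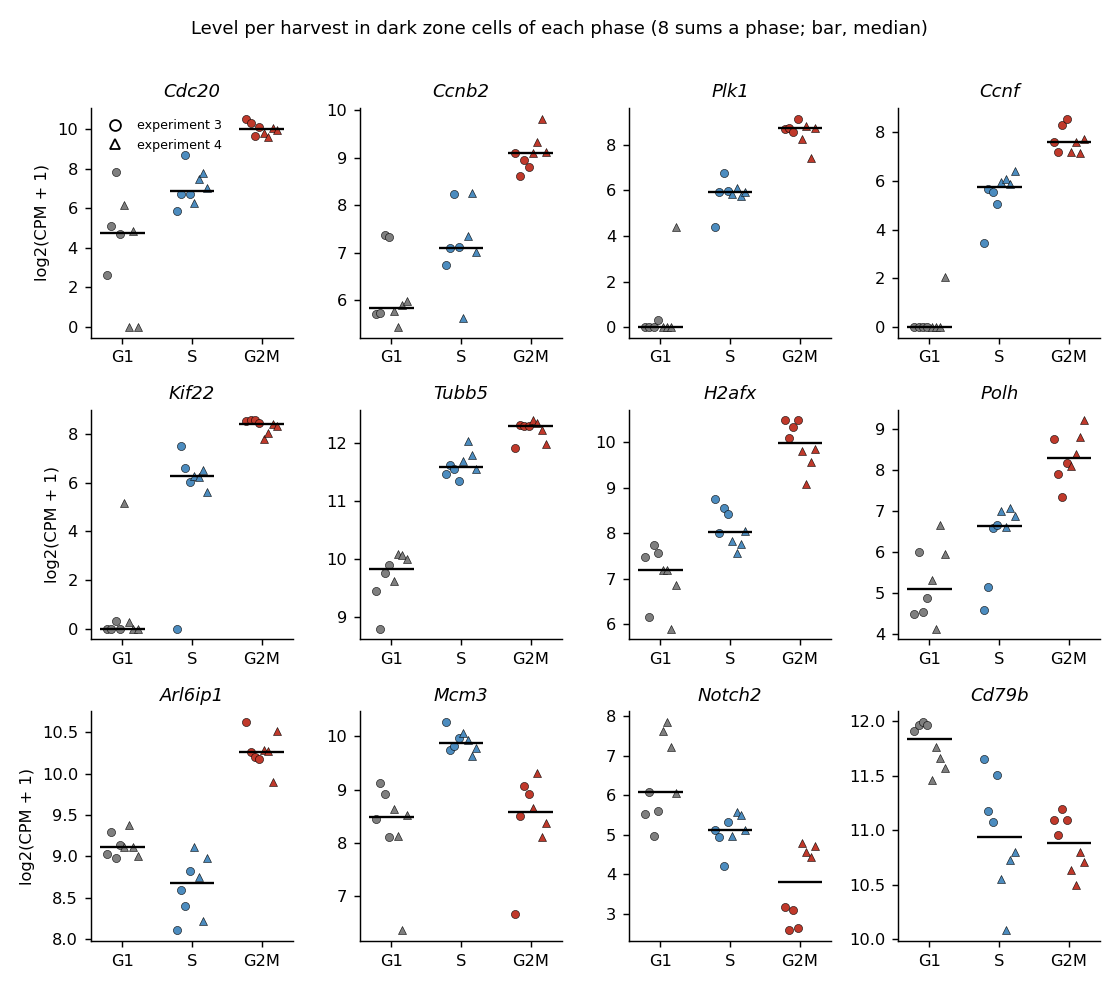
Levels of 12 genes, as log2(CPM + 1), in the 8 sums of G1, S and G2M dark zone cells (circles, experiment 3; triangles, experiment 4; bars, medians; each panel has its own y axis, and not all start at 0). Cdc20, Ccnb2 and Plk1 are highest in G2M; Polh, H2afx and Arl6ip1 stand above both other phases without overlap; Mcm3 is highest in S; Notch2 and Cd79b are lowest against G1.

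Promoters of late cell cycle genes often hold a CCAAT box, bound by NF-Y, and the core of the cell cycle homology region, TTTGAA, read by the DREAM and MuvB complexes. The 150 bases before the RefSeq start (GRCm38.p6) of 3 genes that are high in G2M cells are shown. They were chosen because these bases hold both motifs in each gene. Capitals mark TTTGAA and CCAAT, or ATTGG and TTCAAA where the motif is on the other strand. The first is at chr4:118437344-118437493, the second at chr17:24251410-24251559 and the third at chr7:127042421-127042570, all read on the minus strand.
Cdc20: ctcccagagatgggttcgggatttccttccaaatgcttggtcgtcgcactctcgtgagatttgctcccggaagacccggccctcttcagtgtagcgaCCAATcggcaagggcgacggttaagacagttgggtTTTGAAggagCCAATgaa
Ccnf: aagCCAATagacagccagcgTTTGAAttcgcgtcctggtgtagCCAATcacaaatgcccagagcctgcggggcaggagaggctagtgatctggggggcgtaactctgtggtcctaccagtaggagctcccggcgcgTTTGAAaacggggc
Kif22: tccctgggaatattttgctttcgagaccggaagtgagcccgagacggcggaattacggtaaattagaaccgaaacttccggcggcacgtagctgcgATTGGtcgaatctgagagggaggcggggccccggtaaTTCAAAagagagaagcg
In Cdc20 the TTTGAA begins 18 bases before the start, in Ccnf 14 and in Kif22 17. Windows from 250 bases before to 50 after each start were searched for both motifs on both strands, and by their letters the motifs can share an end base. TTTGAA was present in 82 of 279 windows (29.4%) of the genes that rose in G2M against G1, for 228 of 304 of which RefSeq gave a window. It was present in 13.5% of the windows of the genes that fell, for 90 of 120 of which RefSeq gave one, in 11.9% of 9064 windows of all genes tested and in 17.9% of 32851 windows of the whole table. CCAAT was present in 52.3%, 40.6%, 38.4% and 37.4% of these windows. Among the genes that rose against S, 7 of 18 windows (38.9%) held TTTGAA and 12 of 18 (66.7%) held CCAAT. These shares are descriptions of letters, with no test, and several windows can belong to 1 gene.

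Depth and markers of other cells were compared between the phases first. Harvest medians of counts per G2M cell ran from 183396 to 388078, and differed from those of G1 cells by 36578 (exact sign-flip permutation over 8 harvests, two-sided, p = 0.0625, adjusted p = 0.1) and from S cells by -18105 (permutation p = 0.172). After thinning, G2M cells had 828 ± 350 (SD, n = 8) more genes detected than G1 cells (higher in 8 of 8 harvests, exact permutation p = 0.0078, adjusted p = 0.0208), and -74 ± 209 relative to S cells (adjusted p = 0.446). The percent of mitochondrial counts was lower in G2M: the difference was -0.323 points against G1 (7 of 8 harvests, adjusted p = 0.0469) and -0.432 points against S (8 of 8, adjusted p = 0.0208, exact permutation). All 14 B cell identity genes were detected in G2M cells, with a summed level of 11497 to 16554 CPM, against 17795 to 24920 in G1. Of 16 T cell markers 15 were above 0 (summed 97.6 to 337 CPM in G2M, 102.4 to 251 in S, 152.4 to 406 in G1; Thy1 at 0), and 3 G2M cells (1.82%) had a count of Cd3e. In G2M, Lck (median 96.7 CPM) and Cd2 (46.6 CPM) had the highest medians of the 16, and Cd247 came next at 0.374 CPM. The part of T cell RNA in the results was not tested. Of 12 myeloid markers 9 were at 0 in every phase, Lyz2, Itgam, Adgre1 and C1qa among them (summed at most 18.9, 48.6 and 80.2 CPM), as were 6 of 9 stromal markers (132.98 to 256, 88.8 to 226 and 246 to 889 CPM). Plasma cell markers summed to 1943 to 4220, 1995 to 3608 and 1789 to 12351 CPM, with Tnfrsf17 at 0 in G2M. The highest medians in G2M were those of Jchain (1908 CPM), Mzb1 (402), Slamf7 (260.3) and Xbp1 (259.6). Prdm1 and Sdc1 had medians of 0 there. Of the 501 cells, 97 were also flagged for the light zone by the authors, 24 of them in G2M. Results that lose their call without these 97 are given with both values or in a count.

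Against G1 cells of the same harvests, G2M cells had more RNA of many genes of the mitotic apparatus, 30 of 41 spindle genes and 23 of 35 kinetochore genes tested among them. Of 9030 genes outside the scores, 304 were higher (3.37%) and 120 lower (1.33%), or 424 in all (4.7%). These were called by edgeR's quasi-likelihood test at an adjusted p under 0.05, with harvest as block. The adjustment ran over 9129 genes, those of the scores included, of which 495 passed. The 8 G2M sums lay wholly above the 8 G1 sums for 1.32% of the genes and wholly below for 10 genes (0.111%). The median log2 ratio over these genes was 0.10. With cells thinned to 20000 counts 399 of 6150 genes passed, among them 301 of the 353 calls that could be tested. Without the cells of both zones 209 genes were higher and 26 lower, and 216 of the 424 calls were kept. With experiment 3 or 4 alone 93 and 59 genes passed, and 997 passed with DESeq2 (11.04%). The share of higher genes was 71.7% of all calls, and 88.9% without the cells of both zones.

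Of the 12 largest rises, 4 had no count in any G1 cell, so that their folds are lower bounds set against 3 counts over the whole G1 group. Pbk, a mitotic kinase, had 66.4 to 242 CPM in G2M (median 142.4) and was at least 1775-fold higher than in G1. Ankle1, a nuclease that cuts chromatin bridges, was at least 1464-fold higher, Troap, a spindle protein, at least 855-fold and Kif14, a kinesin of cytokinesis, at least 322-fold. The kinesins Kif18a (median 84 CPM) and Kif18b (37.4 CPM) and the centriole factor Stil (49.98 CPM) had between 1 and 3 counts over all G1 cells, and no ratio is given for them. Ccnf, cyclin F, had 143.4 to 380 CPM against at most 3.21 in G1. Its log2 ratio was 10.03 ± 0.88 (edgeR adjusted p = 4.54e-07, higher in 8 of 8 harvests, as the naming rule required). Here and below, the ± of a gene's ratio is an approximate SE. It is the size of the ratio divided by the square root of edgeR's F statistic. Plk1 rose by 9.70 ± 1.03 (adjusted p = 4.67e-06) and Kif22, a kinesin that moves chromosome arms, by 9.42 ± 1.34 (adjusted p = 0.00012). Aspm, a spindle pole protein, and Pif1, a DNA helicase, rose by 10.16 ± 1.34 and 9.88 ± 1.52. None of these 12 genes overlapped between the phases, and each passed when any 1 harvest was left out. Ratios against levels so near 0, and the ± made from them, depend on the small count that edgeR adds, and the levels carry the result.

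The list of spindle, kinesin and cytokinesis genes outside the scores had 30 of 41 tested members higher in G2M than in G1 and none lower, with a median log2 ratio of 4.85. Tubb5, a beta tubulin, had 3884 to 5406 CPM in G2M and 442 to 1084 in G1 (log2 ratio 2.50 ± 0.13, adjusted p = 2.57e-10), and Tuba1b, an alpha tubulin, 3167 to 5671 against 164.99 to 717 CPM (3.07 ± 0.24). Among kinetochore and checkpoint genes 23 of 35 were higher (median 4.17). Bub1b, the checkpoint kinase-like protein BUBR1, had 258 to 417 CPM in G2M and at most 32.6 in G1 (7.92 ± 1.13), and Zwilch, a member of the complex that recruits dynein to kinetochores, rose by 9.19 ± 1.10. Bub3, which carries checkpoint proteins to kinetochores, was present in G1 at 148.9 to 511 CPM and rose by 1.39 ± 0.16 to 627 to 1064 CPM; without the cells of both zones it was 1.66 and did not pass (adjusted p = 0.124). Of 20 mitotic kinases and cyclins 9 were higher (median 2.80), with Ccna2, cyclin A2, at 678 to 925 CPM against at most 131.4 in G1 (7.32 ± 1.15). Condensin and cohesin genes, which fold and hold chromosomes, had 8 of 18 members higher (median 1.90), among them Ncapg (2.31 ± 0.30), Smc2 (4.39 ± 0.73), Esco2 (6.94 ± 0.94) and Cdca5 (7.58 ± 1.09). Of 22 ubiquitin ligase genes of the APC/C and SCF, 4 were higher (median 0.70), among them Fbxo5, an inhibitor of the complex (3.69 ± 0.85; 3.48, adjusted p = 0.105, without the 97 cells flagged for both zones), and Fzr1, its late activator (1.50 ± 0.37, called in 6 of 8 fits without 1 harvest). Genes of the score lists, which were taken to have chosen the cells, had medians of 5.44 (G2M) and 1.61 (S) over G1. All lists were chosen with earlier results of these data known, and no list was tested as a set.

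Some genes of DNA synthesis and repair outside the scores were also higher than in G1. Replication genes had 12 of 37 members higher (median 1.24), among them the nucleotide enzyme Tk1 (121.2 to 326 CPM against at most 25.9, log2 ratio 4.67 ± 0.80), Mcm10 (5.71 ± 1.01), Dut (1.34 ± 0.23) and the ligase Lig1 (1.85 ± 0.35). Homologous recombination genes had 4 of 24 higher (median 2.19): the Fanconi anemia genes Fancd2 (7.90 ± 1.55) and Fanci (7.21 ± 1.55) passed without any 1 harvest, while Rad54b (5.98) and Chek2 (4.26) passed in 3 and 2 of 8 such fits. Of 19 G1 cyclins, CDKs and E2F genes 5 were higher (median 0.70), among them Tfdp1, the E2F partner (1.59 ± 0.28; 1.68, adjusted p = 0.113, without the cells of both zones), Cdk6 (1.51 ± 0.36) and Cdk4 (0.79 ± 0.19), the last 2 of which lost the call without some harvests. Ccnd3, cyclin D3, which drives dark zone divisions, had 546 to 989 CPM in G2M, 781 to 1264 in S and 420 to 873 in G1. Its ratio to G1 was 0.23 ± 0.15 (higher in 7 of 8 harvests, adjusted p = 0.586). Myc had at most 52.6 CPM in G2M, 35.96 to 106.5 in S and at most 160.7 in G1, and its ratio to G1 was 0.86 ± 1.18 (adjusted p = 0.872).

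Variant histone and chromatin genes had 12 of 23 members higher than in G1 (median 0.94). H2afx, the histone that is phosphorylated at DNA breaks (chromosome 9, 44334694 to 44336077), had 541 to 1433 CPM in G2M and 58.4 to 213 in G1, a log2 ratio of 2.94 ± 0.19 (adjusted p = 4.74e-09). H2afz (1.91 ± 0.17) and the chromatin proteins Hmgb1 (1.49 ± 0.13) and Hmgn2 (1.19 ± 0.15) rose too. Of 14 hypermutation and abasic site genes 3 were higher (median 0.77). Polh, the polymerase that writes mutations at A and T bases during hypermutation (chromosome 17, 46171355 to 46202645), had 160.9 to 588 CPM in G2M (median 309.9) and 16.5 to 100 in G1 (median 33.8), with a ratio of 3.09 ± 0.38 (adjusted p = 2.78e-05). A count of Polh was found in 95.2% of G2M cells, 79.5% of S cells and 42.4% of G1 cells, and after thinning in 79.1%, 52.9% and 21.2%. Hmces, a sensor of abasic sites, rose by 1.11 ± 0.20 (958 to 2400 CPM against 288 to 1625), and Rpa1 by 0.75 ± 0.20, the last called in 3 of 8 fits without 1 harvest.

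Lower in G2M than in G1 were receptors of the B cell surface and antigen presentation. Notch2, a receptor of B cell fate (chromosome 3, 98013527 to 98150361), had 4.94 to 26.7 CPM in G2M and 30.5 to 232 in G1 (log2 ratio -2.72 ± 0.42, adjusted p = 0.00033). Il4ra, the IL-4 receptor chain, had 42.97 to 175.2 against 202 to 555 CPM (-1.82 ± 0.25, adjusted p = 7.76e-05). For both genes no G2M sum reached the lowest G1 sum. The other largest falls were Cd59a (-3.66), Gpr137b (-2.69), the fringe enzyme Mfng (-2.17), the DNA exonuclease Trex1 (-1.97), Pld4 (-1.82) and Dennd2d (-1.78), with overlapping sums. They were lower in 8 of 8 harvests, which the naming rule required of all the largest falls. Of these, Trex1 passed without any 1 harvest, while Mfng passed in 1, and Cd59a and Dennd2d in 2, of 8 such fits. Of 14 B cell identity genes 6 were lower and none higher (median -0.55): Cd79b, a chain of the B cell receptor, had 1442 to 2341 CPM against 2815 to 4080 (-0.92 ± 0.11, adjusted p = 2.11e-05), Cd79a fell by 0.61 on the log2 scale and Cd74 by 0.54. Cd74 is also among the 12 MHC class II genes, of which 6 were lower (median -0.51). Others of the 6 were H2-Eb1 (-0.59 ± 0.10), H2-Ab1 (-0.48 ± 0.09) and H2-Aa (-0.46 ± 0.10). With the 97 cells of both zones left out these 3 were at -0.45, -0.34 and -0.29 and did not pass (edgeR adjusted p = 0.0601, 0.119 and 0.4), while Cd79b, Cd79a, Cd74, Notch2 and Il4ra did. Of 26 light zone genes 3 were lower (median -0.72), and Cd83, an activation marker of the light zone, fell by 1.21 on the log2 scale (344 to 804 against 540 to 3201 CPM, lower in 8 of 8 harvests, adjusted p = 0.00033). With those cells left out the Cd83 ratio was -1.05 and did not pass (adjusted p = 0.0777). Of 16 dark zone genes 2 were higher, Gcsam (1.15 ± 0.23) and Polh, which the hypermutation list also holds. The 1 lower gene was Foxp1 (-1.17 ± 0.26), and the median was 0.27. CPM are relative to the scaled total of a sum, and RNA per cell was not measured.

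Ribosomal protein genes had none of 28 called (median -0.07; Rpl3 0.17 ± 0.07), and neither had apoptosis genes, with none of 15 called (median -0.09). MYC growth genes had 1 of 31 higher (median 0.15), Npm1 (0.36, adjusted p = 0.0488), oxidative phosphorylation 1 of 20, Atp5a1 (0.39; median 0.20), and glycolysis and mTORC1 genes 3 of 21, Pkm (0.65), Phgdh (0.75) and Ldha (0.62; median 0.44). Of 17 ER chaperone genes 1 was lower, Pdia3 (-0.64; median -0.01). Over all 9030 genes 3.37% were higher and 1.33% lower, so 1 call in a list this small does not set the list apart. Of 5 tested dissociation stress genes Dnajb1 was higher (1.22) and Junb lower (-1.10), while their summed level was 217 to 357 CPM in G2M, 166.4 to 402 in S and 209.5 to 460 in G1. Among tested markers of other cells, none of 2 T cell, 1 myeloid and 6 plasma cell genes passed, and 1 of 3 stromal ones, Fcer2a, which B cells also express, was lower (-1.48 ± 0.33; -1.19, adjusted p = 0.268, without the cells of both zones). Of these single genes, Pkm and Fcer2a passed without any 1 harvest, and the others lost the call in at least 1 such fit. Over all paragraphs on G1, 74 genes were named and called by the naming rule; 53 of them passed without any 1 harvest, and 26 lost the call without the 97 cells of both zones. The 26 include, beside those given with both values, Ube2s, Cdk4, Cdk6, Fzr1, Rad54b, Rpa1, Cd59a, Gpr137b, Mfng, Dennd2d, Ldha, Phgdh, Npm1, Atp5a1, Pdia3, Dnajb1 and Junb. The bar plot of the lists gives these shares for both comparisons.

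**Figure D2:**
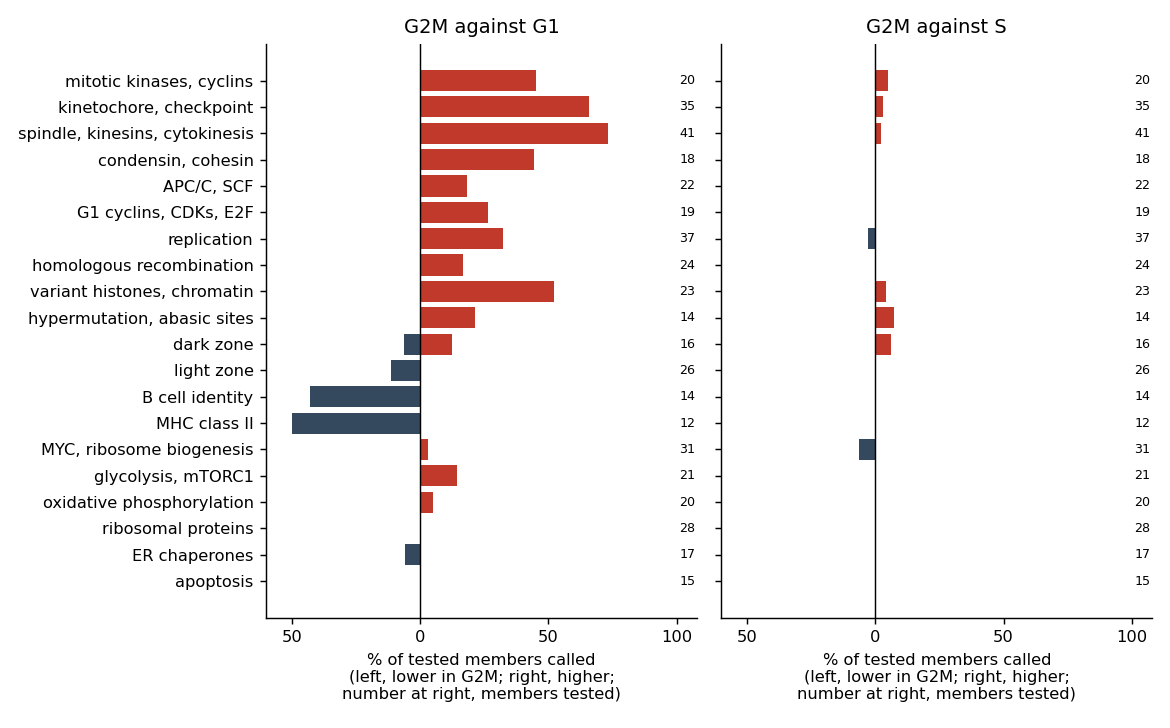
Percent of the tested members of each gene list (genes of the phase scores left out) that were higher (right) or lower (left) in G2M dark zone cells than in G1 (left panel) or S cells (right panel), by edgeR at an adjusted p under 0.05, with the number tested at the right. Against G1, 30 of 41 spindle genes and 23 of 35 kinetochore genes were higher, and 6 of 12 MHC class II genes were lower; against S, no list had more than 2 members called.

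Against S cells far fewer genes stood apart. Of the same 9030 genes, 16 were higher in G2M (0.177%) and 8 lower (0.0886%), or 24 in all (0.266%), in the same edgeR fit. With the score genes, which share the adjustment, 39 of 9129 passed. The sums did not overlap for 34 higher (0.377%) and 9 lower genes (0.0997%) outside the scores. Arl6ip1, a membrane protein that shapes the endoplasmic reticulum (chromosome 7, 118118891 to 118129662), had 954 to 1582 CPM in G2M, 274 to 554 in S and 504 to 662 in G1, and rose over S by 1.65 ± 0.14 (adjusted p = 1.21e-06). H2afx rose by 1.87 ± 0.18 over S, where it had 188.2 to 427 CPM (adjusted p = 8.38e-06). Polh rose by 1.95 ± 0.36 over 23.2 to 133.5 CPM (adjusted p = 0.0162), Bub3 by 0.96 ± 0.16 over 320 to 598 (adjusted p = 0.0054), and Lrmp, an endoplasmic reticulum protein of germinal center B cells, by 0.96 ± 0.13 over 314 to 544 (adjusted p = 0.000805). None of these 5 overlapped between the phases. Odf2, a centriole protein, rose by 1.89 ± 0.32 and Cdc25b, the phosphatase that activates CDK1, by 0.94 ± 0.19, with Fgfr1op (1.41), Mfap1b (1.26), Calm2 (0.85), Malat1 (0.81), Dck (0.71) and Tubb5 (0.60 ± 0.13) also higher in 8 of 8 harvests. The naming rule required that sign of all these genes but Tubb5, which was named from its list.

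Lower than in S were 8 genes. Cbx2, a Polycomb protein, was at 0 in 6 of the 8 G2M sums and had at most 3.41 CPM there (mean 0.80, 52 counts in all), against 11.6 to 43.996 CPM in S (mean 22.99, 1107 counts; adjusted p = 0.0138). Mcm3, a subunit of the replicative helicase that is not in the scores, had 100 to 637 CPM in G2M and 789 to 1237 in S (-1.38 ± 0.29, adjusted p = 0.0359), without overlap. Ubtf, the factor that loads RNA polymerase I, fell by 1.40 on the log2 scale (20.5 to 93.3 against 81.03 to 218 CPM, adjusted p = 0.0054). The spermidine synthase gene Srm (-1.73), the snoRNA host Gas5 (-1.16), the IL-21 receptor Il21r (-0.98), the nucleolar Npm1 (-0.54) and the chaperone Hspa8 (-0.41) were lower too. By lists, MYC growth genes had 2 of 31 lower (median -0.54) and replication genes 1 of 37 (median -0.70), beside a median of -0.05 over all genes tested. Of all 9030 genes outside the scores 0.177% were higher and 0.0886% lower. Spindle (median 1.58), kinetochore (0.89) and mitotic kinase genes (0.56) had 1 higher each of 41, 35 and 20, and so had variant histones (1 of 23, median 0.09), hypermutation (1 of 14, 0.07) and dark zone genes (1 of 16, 0.30). The gene called in the hypermutation and dark zone lists was the same, Polh. No member was called in the lists of condensin and cohesin (median 0.15), APC/C and SCF (-0.08), G1 cyclins (-0.40), homologous recombination (-0.28), light zone (-0.03), B cell identity (0.09), MHC class II (0.18), glycolysis (-0.37), oxidative phosphorylation (-0.15), ribosomal proteins (-0.13), ER chaperones (0.06), apoptosis (0.05) or stress (-0.06). Score genes had medians of 1.76 (G2M) and -0.96 (S), whose signs the phase rule fixes if the authors scored with this list.

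Several genes that were well above S did not pass. Plk1 was higher in 8 of 8 harvests without overlap, by 2.70 ± 0.69 (edgeR adjusted p = 0.131), and passed once the cells of both zones were left out (2.97, adjusted p = 0.00124) or without 60 h of experiment 4 (2.69, adjusted p = 0.00127). Ccnf (2.24 ± 0.60, adjusted p = 0.166), Ccnb1 (2.44 ± 0.77; 560 to 1503 against 82.6 to 278 CPM) and Kpna2 (1.86 ± 0.49; 895 to 3314 against 310 to 524 CPM) were likewise above S in every harvest. Ccnd3 was lower than in S in 8 of 8 harvests (-0.48 ± 0.15, adjusted p = 0.342), Myc also (-1.86 ± 1.08, adjusted p = 0.936), and Cd83 in 7 of 8 (-0.52 ± 0.19, adjusted p = 0.477). The calls against S were sensitive to which cells entered. Without each harvest in turn 8 to 18 genes passed, and Arl6ip1, Bub3, H2afx, Lrmp and Ubtf passed each time. Polh lost the call without 60 h of experiment 3 (2.02, adjusted p = 0.0571) or of experiment 4 (1.89, adjusted p = 0.0896), and Odf2 and Gas5 without 30 h of experiment 3 (adjusted p = 0.0524 and 0.059). The other named genes passed in at most 5 of 8 such fits, and Dck and Il21r in none. Without the cells of both zones 3 genes passed, Arl6ip1 (1.66, edgeR adjusted p = 6.36e-05), Lrmp (0.95, adjusted p = 0.0397) and Plk1. Of the 24 calls 2 were kept, and 19 of the 21 genes named and called against S lost the call. H2afx was at 1.88 (adjusted p = 0.196), Polh at 1.81 (0.148), Bub3 at 0.99 (0.9998) and Ubtf at -1.22 (0.9998). Without the harvest block 13 genes passed and with DESeq2 1.38% of genes, and all 24 kept their sign in every fit that tested them.

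The FUCCI intensity, read on the sorter and not used for the phase, was higher in G2M cells. Log2 harvest medians lay between 7.48 and 13.40 in G2M (median 12.18), 6.78 and 8.38 in S and 6.46 and 7.28 in G1 (arbitrary units of the sorter). The difference of log2 medians was 4.16 ± 2.40 against G1 (SD, n = 8, higher in 8 of 8 harvests, exact sign-flip permutation, two-sided, p = 0.0078, adjusted p = 0.0234 over 6 tests). Against S it was 3.41 ± 2.32 (7 of 8 harvests, exact permutation p = 0.0234, adjusted p = 0.0469). A p of 0.0078 is the smallest that 8 harvests allow. The G2M cells fell in separate groups: 94 (57%, exact interval 49 to 64.6) lay above 1000, a value chosen after the intensities were seen, 1 lay between 300 and 1000, and the rest lay below 300, as nearly all G1 cells did. Above 1000 were also 50 S cells (29.2%) and 4 G1 cells (2.42%), all 4 at 12 h of experiment 4. Per harvest the share of G2M cells above 1000 ran from 37.5% to 73.3%. Across the G2M cells, intensity went with the G2M score (Spearman rho 0.57), H2afx (0.56), Top2a (0.50), Plk1 (0.44), Ccna2 (0.42) and genes detected (0.37), and not with Cdc20 (-0.07), Ccnb2 (-0.12) or total counts (0.10). These coefficients are descriptions over cells that share plates and harvests.

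**Figure D3:**
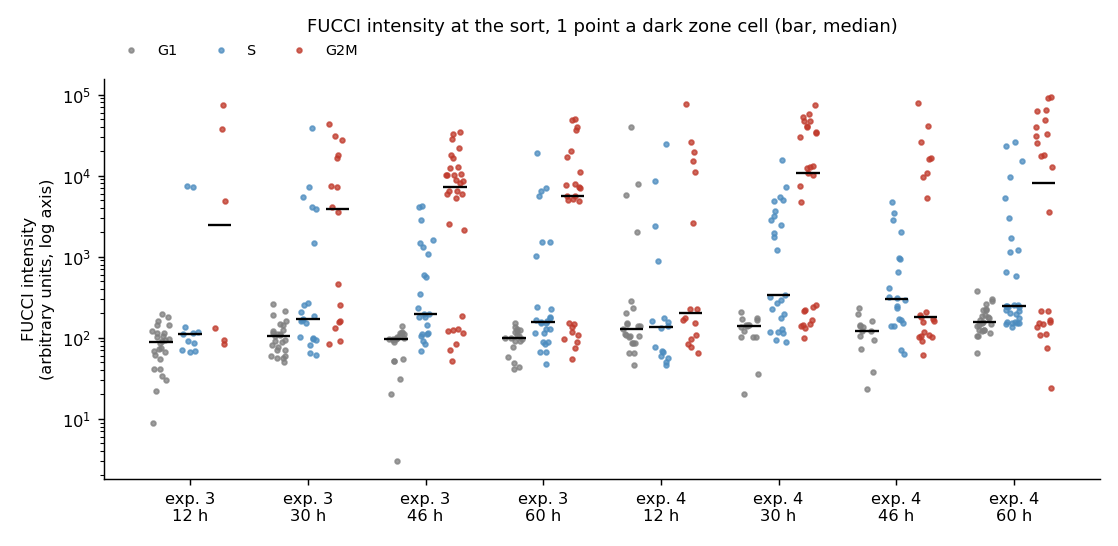
FUCCI intensity at the sort (arbitrary units, log axis) of every dark zone cell, by harvest and phase (grey, G1; blue, S; red, G2M; bars, medians). Of the G2M cells 94 (57%) lie above 1000 and nearly all others at the level of G1 cells; at 12 and 46 h of experiment 4 the median falls in the lower group.

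CXCR4, the chemokine receptor that holds cells in the dark zone and by which zones are sorted, was brighter in G2M than in G1 cells by 0.40 ± 0.25 log2 units (8 of 8 harvests, adjusted p = 0.0234, exact permutation). Harvest medians were 539 to 758 in G2M and 292 to 587 in G1. Against S the difference was 0.05 ± 0.41 (adjusted p = 0.75). CD83 intensity differed from G1 by -0.21 ± 0.98 and from S by -0.49 ± 0.99 (adjusted p = 0.684 and 0.316, exact permutation), with values missing for 9 G2M, 11 S and 14 G1 cells.

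The share of dark zone cells in G2M was 32.9% (exact interval 28.8 to 37.2) over all harvests. In experiment 3 it was 14% (6 of 43 cells) at 12 h, 25.8% (16 of 62) at 30 h, 41.1% (30 of 73) at 46 h and 36.2% (25 of 69) at 60 h. In experiment 4 it was 29.1% (16 of 55), 40.3% (27 of 67), 38.9% (21 of 54) and 30.8% (24 of 78). Both experiments had their lowest share at 12 h, which in experiment 4 was close to that at 60 h. The highest was at 46 h in experiment 3 and at 30 h in experiment 4. The mean slope was 0.281 points per h (0.525 in experiment 3, 0.0376 in experiment 4), and an exact permutation test, with times rearranged inside each experiment, gave a two-sided p of 0.135. Among light zone cells of the same experiments 36 of 170 (21.2%, 15.3 to 28.1) were in G2M. In 7 harvests with at least 10 light zone cells, the dark zone share was higher by 7.97 ± 5.33 points (SD), in 7 of 7 (0.91 to 13.8 points; exact sign-flip permutation p = 0.0156, the smallest that 7 harvests allow). With phases scored anew on thinned cells it was 7.56 points, higher in 5 of 7, and did not pass (exact permutation p = 0.0625). Intervals cover counting error only.

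**Figure D4:**
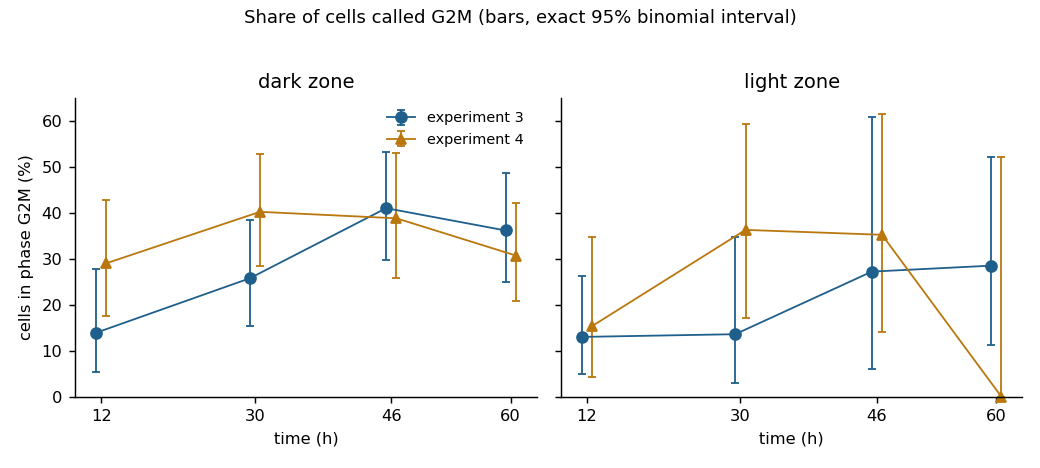
Percent of Dec+ cells in phase G2M by time in the dark zone (left) and light zone (right) of experiments 3 (circles) and 4 (triangles), with exact 95% binomial intervals. Dark zone shares run from 14% to 41.1%; the light zone holds 5 to 46 cells a harvest, and its intervals are wide.

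Within G2M cells, no gene passed over time. For 30, 46 and 60 h against 12 h, edgeR called 0 of 9709 genes in each (0.0%). An unadjusted p under 0.05 was reached by 467, 645 and 433 genes, and by 285 for any difference between times; DESeq2 called 1.61%, 2.77% and 1.74% of them. Each time has 2 sums, and the 12 h sum of experiment 3 holds 6 cells. Without the 12 h sum of experiment 4, which leaves that sum of 6 cells as the sole 12 h sum and assumes that it varies like the others, edgeR called 79, 34 and 71. Plk1 had 412, 425, 380 and 567 CPM in experiment 3 and 299, 456, 170 and 431 in experiment 4 at 12, 30, 46 and 60 h, with no common direction. Cdc20 was 1478, 1256, 804 and 1116 CPM in experiment 3 and 895, 760, 1065 and 994 in experiment 4. Ccnd3 lay at 546, 766, 653 and 571 CPM and at 564, 989, 877 and 742. Cd83 had 524, 675, 412 and 344 CPM and 804, 464, 361 and 454, and Myc 30.4, 24.1, 32.8 and 12.8 and 50.1, 52.6, 10.1 and 0 CPM. None of these passed at any time.

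The genes with the lowest p were chosen by that p and did not pass. Hsp90aa1, a cytosolic chaperone, had 148.1, 442, 714 and 513 CPM in experiment 3 and 235, 687, 774 and 415 in experiment 4, and the ratio at 46 over 12 h was 1.97 ± 0.33 (edgeR adjusted p = 0.476). Rplp1, a ribosomal protein, had 628, 1079, 1549 and 1035 CPM and 371, 513, 1045 and 496 (1.39 ± 0.25, adjusted p = 0.476). Both were lowest at 12 h and highest at 46 h in both experiments. Thumpd1, a cofactor of tRNA acetylation, had 0.80 and 3.27 CPM at 12 h and 49.2 to 143.2 at later times (edgeR adjusted p = 0.856, 0.476 and 0.588). Rufy1 and Rras2 were at 0 in both 12 h sums. Iglc3, a lambda light chain constant gene, had 2219, 2226, 1604 and 289 CPM and 641, 239, 542 and 83.3 (-2.94 ± 0.40 at 60 h, adjusted p = 0.426). The 28 ribosomal protein genes summed to 52661, 66383, 84936 and 62473 CPM in experiment 3 and to 35158, 41144, 61923 and 36373 in experiment 4, with 28 of 28 ratios of 46 over 12 h above 0 and none called (median 0.81, against 0.27 over all genes). S and G1 cells of the same harvests also had their highest sum of these genes at 46 h. Of 17 ER chaperones 1 had a ratio of 60 over 12 h above 0 (median -0.77, none called, against a median of 0.28 over all genes), and the summed level was 4881 CPM at 12 h and 3252 at 60 h in experiment 3 and 4786 and 3008 in experiment 4. In S cells the sums were 3979 and 3227 CPM and 5144 and 3293, and in G1 cells 3784 and 3079 and 5397 and 4495. Plasma cell markers in G2M cells summed to 4220 CPM at 12 h and 2153 at 60 h in experiment 3 and to 2802 and 1943 in experiment 4, with 1 of 7 tested ratios above 0 and none called (median -0.87). Xbp1 is in both of these lists, and the part of plasma cell markers in the chaperone values was not tested. The change with time in G2M cells against that in G1 cells had 0 genes called of 10617 (0.0%) by edgeR for all 3 times. An unadjusted p under 0.05 was reached by 465, 660 and 346 of them, and DESeq2 called 2.19%, 4.83% and 1.31%.

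**Figure D5:**
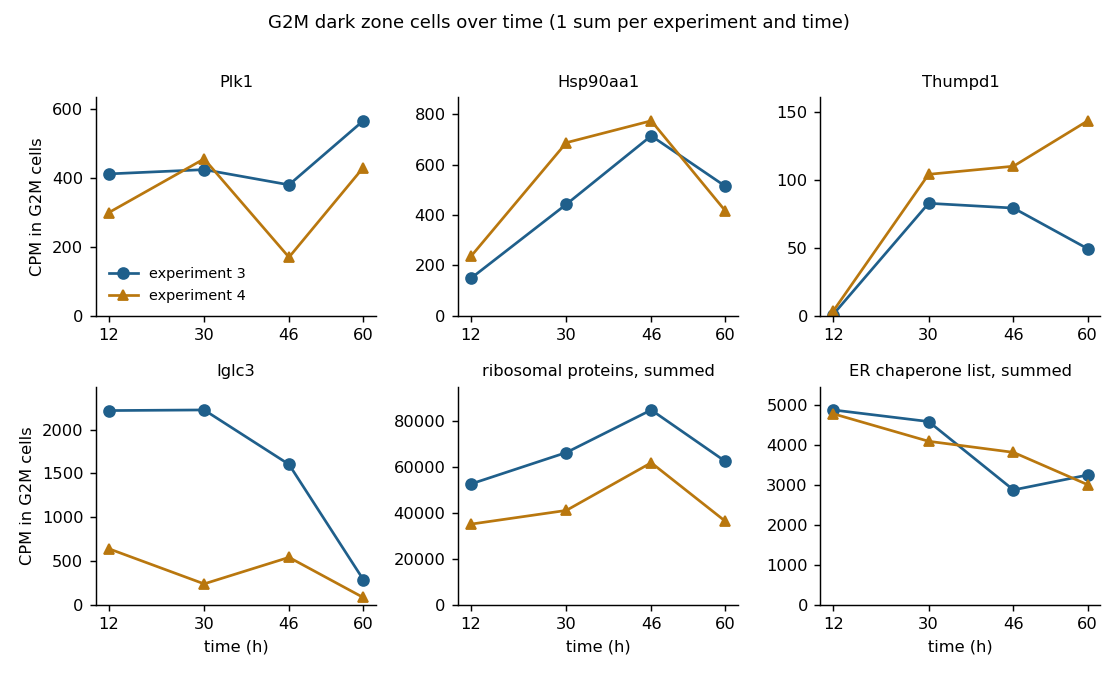
Levels in G2M dark zone cells at 12, 30, 46 and 60 h (CPM, axes from 0; circles, experiment 3; triangles, experiment 4; 1 sum per point, so no error bar) of Plk1, Hsp90aa1, Thumpd1, Iglc3 and the sums of 28 ribosomal protein and 17 ER chaperone genes. Ribosomal sums peak at 46 h in both experiments (84936 and 61923 CPM), and no gene passed the test.

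G2M dark zone cells of other experiments, each with 1 sum a phase and therefore no test, can be set beside these. In experiment 5, WT cells (24 G2M, 20 S and 38 G1), all 12 genes with the largest rises over G1 were higher in G2M, and of the 8 largest falls 6 were lower and 1 higher. The 12 rises over S were all higher and the 8 falls all lower there. Plk1 had 205 CPM in G2M, 5.42 in S and 0 in G1, Polh 444, 266 and 118.7, H2afx 598, 187.9 and 51.8, Arl6ip1 1624, 605 and 776, and Notch2 17.8, 30.6 and 135.9. In dark zone cells of experiment 1 (21 G2M and 17 S cells), which the labels put at 30 h and a group column of the authors' cell table at a later time, 11 of 12 rises were higher than in S and 6 of 8 falls lower. There Plk1 had 404 CPM in G2M and 118.1 in S, H2afx 336 and 143.1, and Mcm3 1158 and 1174.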

How the data were processed

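SmartSeq2 libraries of single sorted germinal center B cells were used. The authors deposited expected counts per gene in a table of the cells they kept. Tools named by the submitters' processing notes are Seurat 3.1.4, RSEM 1.3.1 and STAR 2.6, and the build is mm10; their roles, read filters and the annotation are not given in the sources used here. The authors' deposited cell table also held S and G2M scores with the phase, the percentage of mitochondrial counts, and sorter intensities of FUCCI, CXCR4 and CD83. How the authors made each score and intensity is not given in the sources used here.

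Columns were matched to samples by name, and 501 columns of the combined tables matched none and were not used. Expected counts were summed over the cells of each harvest and phase, rounded to whole numbers and kept where a sum held at least 5 cells, which gave 24 sums. Genes were filtered with filterByExpr and scaled with TMM, and edgeR 4.0.16 (R 4.3.3, limma 3.58.1) was fitted with its quasi-likelihood test, with harvest as block for the phases and experiment as block for time. Benjamini-Hochberg adjusted p-values ran over all genes tested, with a threshold of 0.05. Between phases these were 9129 genes, those of the scores included, and calls near the threshold depend on that. An adjustment without the score genes was not run. The fit was tested on simulated data. Phases of a harvest are paired by the labels, which give them the same experiment and time: deviations from phase means correlated at 0.0189 to 0.233 over 24 pairs of the same harvest (median 0.0839), against a median of -0.023 between harvests. Intensities, depth and the shares of dark against light zone were compared by exact sign-flip permutation over harvests. Shares over time were compared by permuting times inside each experiment. Detection shares were taken from all counts and again with each cell thinned to 20000 counts, and 3 dark zone cells were shallower. No doublet caller was run.

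The members and gene lists were chosen with earlier results of these data known. Lists can share genes, as hypermutation and dark zone share Polh, and light zone and stroma share Fcer2a. Genes were named by rule: Cdc20, Ccnb2, Plk1, Ccnd3, Myc and Cd83; the 12 largest rises and 8 largest falls among called genes with at least 20 CPM and 1 sign in every harvest; up to 4 list members with the lowest p; and over time the genes called or else the 3 with the lowest p. Top2a and the choice of genes for the promoter lines and the FUCCI coefficients fall outside it and were made after values were seen. Alternatives tried were DESeq2 1.42.0, library size scaling, no filter, thinned cells, sums of 10 cells or more, no block, sums per plate, a fit over all phases, no cells flagged for both zones, 1 harvest or experiment left out, and phases scored anew with Seurat 5.3.0. Positions are from GENCODE vM21 (mm10), and promoters from RefSeq (GRCm38.p6).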

Additional observations from a re-analysis of the deposited data

Results flagged for a closer look

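In 7 of 59 groups of harvest values, 1 harvest stood apart from the other 7 by Dixon's criterion, which chance meets in about 1 of 20 groups. For the log2 ratio of G2M to G1, on the log2(CPM + 1) scale, Kif22 was at 2.61 at 12 h of experiment 4, against 7.78 to 8.57 in the other harvests. Pif1 was at 3.57 at 30 h of experiment 4 (others 5.85 to 7.46), and Plk1 at 4.35 at 60 h of experiment 4 (others 7.42 to 8.84), the harvest whose G1 sum held most of the G1 counts of Plk1. For the log2 ratio of G2M to S, Arl6ip1 was at 2.53 at 12 h of experiment 3 (others 1.17 to 1.80), where the G2M sum held 6 cells, and Mcm3 was at -3.62 in the same harvest (others -1.52 to -0.61). Dck was at 0.174 at 30 h of experiment 4 (others 0.62 to 0.98), and Malat1 at 1.58 at 46 h of experiment 3 (others 0.42 to 0.95). Each kept its sign in all 8 harvests, which the naming rule required of these genes.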

How the results depend on the processing

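The larger set of calls, against G1, held its size in most settings, and the calls against S did not; the cause was not tested. Against G1, where 4.7% of 9030 genes passed, 11.04% passed with DESeq2, 2.68% without the cells of both zones, and 1.04% and 0.641% with experiment 3 or 4 alone. Without each harvest in turn 3.21% to 4.49% passed (290 to 409 genes). Against S, where 0.266% passed, the shares were 1.38% with DESeq2, 0.894% with thinned cells, 0.0342% without the cells of both zones, 0.141% where a sum needed 10 cells, 0.0558% in experiment 3 and 0.0% in experiment 4, and 0.0887% to 0.198% without each harvest in turn. Without the harvest block 345 genes passed against G1, and 13 (0.144%) against S. With library sizes in place of TMM 55.6% of 18 calls against S were higher in G2M, compared with 66.7% of 24.

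Over time edgeR called none, while DESeq2 called 1.61%, 2.77% and 1.74% at 30, 46 and 60 h, and 2.19%, 4.83% and 1.31% for the change in G2M against that in G1. The fit over all phases called 3 genes (0.0283%) at 46 h and at 60 h, and thinned cells gave 1 (0.0146%) at 60 h. Leaving out each harvest gave 0.0% to 0.767%, 0.0% to 0.330% and 0.0% to 0.689% at the 3 times, and 0.0% to 0.00974% for any time. The median log2 ratio over all genes was 0.29, 0.27 and 0.28, and 0.25, 0.15 and 0.27 with library sizes.

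The dark minus light zone share was 7.56 points with phases scored anew. FUCCI differences were 5.10 (G1) and 4.42 (S) in experiment 3, and 3.22 and 2.39 in experiment 4; CXCR4 against G1 was 0.249 and 0.547, and 4 harvests cannot reach a p below 0.125. With phases scored anew FUCCI against S was 2.77 (adjusted p = 0.0781, exact permutation). By means in place of medians CD83 against G1 was 0.0228. Ratios that changed sign had not passed in any setting: Myc against G1 was -0.27 without the harvest block, and Myc at 30 h was -0.0783 with DESeq2, -0.0106 with library sizes, -0.0052 in the fit over all phases and -0.0551 without the experiment block. Myc at 46 h was 2.07 without cells of both zones, and Cd83 at 30 h was 0.0978 with thinned cells. Without each harvest in turn Cd83 ran from -0.60 to 0.17 and Myc from -2.36 to 1.87 at 30 h, Plk1 from -0.0766 to 0.74 at 30 h, and Myc from -2.39 to 0.24 at 46 h.

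Depth limits rare transcripts: ratios to phases in which a gene has no count are bounds, and 12 h of experiment 3 holds 6 G2M cells.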
